A study of Arabidopsis thaliana with 12 samples.

Results

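Leaves of 3 Arabidopsis thaliana plants that stood in a ventilated chamber without added formaldehyde were compared with leaves of 3 plants kept outside it, which makes 6 of the 12 plants of a formaldehyde exposure study. Membership was taken from the sample titles, and all 22746 probe sets that are not array controls were tested. Every plant, the unexposed ones included, was of the Columbia ecotype and of the genotype called AB: a double transgenic that makes 3-hexulose-6-phosphate synthase (rmpA) and 6-phospho-3-hexuloisomerase (rmpB) of Mycobacterium gastri MB19 in its chloroplasts and can assimilate formaldehyde. The promoters of the transgenes, and whether the AB plants descend from 1 line, are unknown here. Plants were 7 weeks old and had been held in constant light at 24 °C for 72 h. The air plants spent 150 min in the light in a 10 L chamber flushed at 200 ml/min with gas holding less than 0.04 ppm formaldehyde, at 50 to 60% humidity. The outside plants were held in the light at 24 °C for 150 min in room air with less than 0.08 ppm formaldehyde. The labels do not state their humidity and air movement, and leave it unclear whether they were harvested at the clock time of the chamber plants. The low plants (1 to 2 ppm formaldehyde) and high plants (14 to 16 ppm), 3 each, went through the same chamber procedure and are described here only for the probe sets that answered to chamber air.

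Moving a rosette into a closed, ventilated vessel can change its air movement, the humidity at the leaf surface and its gas exchange, and the handling itself bends leaves. Arabidopsis leaves are known to answer touch, wind and transfer within minutes to hours through calcium-regulated transcription factors, cell wall proteins and hormone pathways. Expansins loosen the wall so that a cell can grow, and COR15 proteins, made in the cold and in drought, protect chloroplast membranes.

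The values are log2 intensities, 1 array per plant. On this scale a difference of 1 is a 2-fold change, and the lowest value of the table, 2.11, stands for a signal that was not measurable. Each chamber condition was run once, with its 3 plants side by side, and the effect of the run cannot be told apart from that of the condition. An adjusted p below is limma's, adjusted over all probe sets by the Benjamini-Hochberg method, and a probe set is called at an adjusted p under 0.05. These p-values cover the spread between plants only. Array medians lay between 5.68 and 5.82. The leaf markers RCA, LHCB4.1, LHCB4.2 and PRK, genes of carbon fixation and light harvesting, were the 4 measured of 7 listed and lay between 13.57 and 15.24 in all outside and air plants, and 0 of the 4 were called. The difference between the 3′ and 5′ signal of control transcripts, a sign of RNA quality, overlapped between outside and air plants for GAPDH (1.83 to 1.87 outside, 1.62 to 2.08 in air), ubiquitin (0.57 to 0.66 and 0.59 to 0.70) and actin (5.23 to 5.75 and 5.42 to 5.55). For GAPDH, air plant 1 read above the outside range, at 2.08, and air plants 2 and 3 below it, at 1.62 and 1.77.

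Air plant 1 stood apart from the other air plants. Across probe sets its array correlated at 0.995 with that of low plant 1 and at 0.986 and 0.982 with those of air plants 2 and 3. The correlations of air plant 1 were 0.991 and 0.990 with low plants 2 and 3. With outside plants 1, 2 and 3 those of air plant 1 were 0.988, 0.987 and 0.986. Its part in the results below was followed by leaving it out.

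Chamber air without added formaldehyde was accompanied by a change in 1274 of 22746 probe sets, which is 5.6%. Of these, 705 (3.1%) were higher and 569 (2.5%) were lower in the air plants, and 583 changed at least 2-fold (310 higher, 273 lower). With each array centred on its median, 732 were called higher and 804 lower, so that the larger share of the calls, 55.3% higher as deposited and 47.7% higher after centring, changed sides. The plants of the 2 groups did not overlap in any of the 1274, which calling on these same plants favours. Over all probe sets, 4590 (20.2%) were without overlap. At an unadjusted p under 0.05, 4493 probe sets passed. The number of calls rested on the arrays used. It was 2137 without air plant 1, 603 without air plant 2, 754 without air plant 3, and 790, 794 and 631 without outside plants 1, 2 and 3. With only the 6 outside and air arrays in the fit 58 were called, 55 of them among the 1274. Of the 47 genes named below that were called in air, 10 were called in that smaller fit: EXPA16, EXPB1, COR15B, SIS, WRKY47, SUFE2, AT1G20070, AT3G05640, AT1G05575 and AT4G00670. In 424 (235 higher, 189 lower) the call held whichever of the 12 arrays was left out.

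Within the called probe sets the change was of like size in the 3 air plants, which calling on these same plants favours. In the probe sets called higher, the median difference from the outside mean was 0.801 in air plant 1, 1.01 in air plant 2 and 0.906 in air plant 3. In those called lower it was -0.851, -0.976 and -0.973. Air plant 1 was the air plant nearest to the outside plants in 369 of the 705 (52.3%) and in 297 of the 569 (52.2%). These values describe probe sets that the same plants had chosen.

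**Figure D1:**
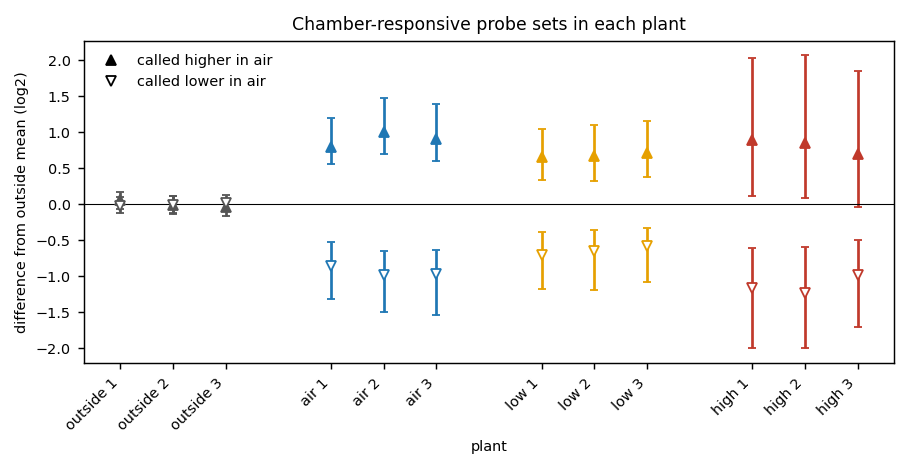
Difference of each plant from the mean of the outside plants (y axis, log2) for the 705 probe sets called higher (filled triangles) and the 569 called lower (open triangles) in air than outside; points are medians over probe sets, bars run from the first to the third quartile, and the x axis names the plant. The medians of the air plants lie at 0.801 to 1.01 and -0.976 to -0.851, those of the low plants at 0.655 to 0.712 and -0.706 to -0.586, and the high plants have the widest quartile ranges.

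Among the genes lower in chamber air, those of the cell wall held 2 of the 4 largest falls. EXPA16, an expansin, read 8.01, 8.68 and 8.00 in the 3 outside plants and 3.52, 2.52 and 3.02 in the 3 air plants, a change of -5.21 ± 0.89 (SE) or 37-fold (adjusted p = 0.0144). EXPB1, a beta-expansin, read 8.08, 8.22 and 7.39 outside and 3.16, 3.87 and 2.93 in air (-4.58 ± 0.40, adjusted p = 0.00117). Every air plant read below 4 for both genes and every outside plant above 7. EXPA15, a further alpha-expansin, fell by 1.29, from 5.99 to 6.61 outside to 4.91 to 5.06 in air (adjusted p = 0.011).

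These 3 were the called members of 18 measured expansins (of 36 listed), and 0 were called higher, beside 2.5% of all probe sets called lower. The median change over the 18 was 0, as it was over all probe sets, and 7 of the 18 sat at the lowest value in all 12 plants. With dim probe sets left out, 10 expansins remained, 5 of them called lower and 0 higher, at a median of -0.928. That fit called 874 probe sets lower in all, against 569 of 22746 in the main fit. It tested fewer probe sets, which were not counted here, so its share called lower is not given. In 6 of the 18 all air plants lay below all outside plants, which held for 9.88% of all probe sets. The 3 without a call were EXPB3 (-2.01, adjusted p = 0.0658), EXPA8 (-1.81, adjusted p = 0.106) and EXPA4 (-0.57, adjusted p = 0.226). EXLA1, an expansin-like gene, read 11.07 in air plant 1 and 6.27 and 6.84 in air plants 2 and 3, around outside values of 7.33 to 8.20. Air plant 1 there read like the low plants (10.63 to 11.49). The EXPA16 call was lost without air plant 2 (adjusted p = 0.0533), and those of EXPB1 and EXPA15 held without any single array.

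Other wall genes gave few calls. XTH16, a xyloglucan endotransglucosylase that cuts and rejoins wall xyloglucan, was higher, at 6.71, 6.13 and 4.88 in air against 4.23, 3.39 and 2.74 outside (2.45 ± 0.56, adjusted p = 0.0396). It was the 1 called of 9 measured xyloglucan enzymes (31 listed), beside 3.1% of all probe sets called higher. Of 30 further wall enzymes measured (106 listed), 1 was called, near the 3.1% of all probe sets called higher: TBL38, of a family of wall polysaccharide acetyltransferases, rose by 1.74 (adjusted p = 0.0143). The XTH16 call was lost in 9 of the 12 fits that left out 1 array, with an adjusted p of up to 0.121 without air plant 2. That of TBL38 was lost without air plant 2 (adjusted p = 0.051).

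The cold-induced COR15 pair fell. COR15B read 12.79, 13.09 and 13.01 outside and 10.32, 9.81 and 10.46 in air (-2.77 ± 0.28, adjusted p = 0.00213). Its neighbour on chromosome 2, COR15A, read 13.37, 13.29 and 13.65 outside and 12.09, 11.43 and 12.39 in air (-1.46 ± 0.31, adjusted p = 0.0312). Every air plant lay below every outside plant for both, which the naming rule required and which held for 9.88% of all probe sets. The 2 genes are close copies, and a transcript of one could bind probes of the other. They were the called falls among 7 measured cold and dehydrin genes (23 listed), with 1 call higher (STZ) and a median of -0.93, beside 2.5% of all probe sets called lower and 3.1% higher. The dehydrins COR47 (-1.06, adjusted p = 0.0942) and LTI30 (-0.93, adjusted p = 0.142) were not called. For COR15A the call was lost in 6 of 12 fits with 1 array left out, up to an adjusted p of 0.1 without outside plant 3, and for COR15B in 0.

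**Figure D2:**
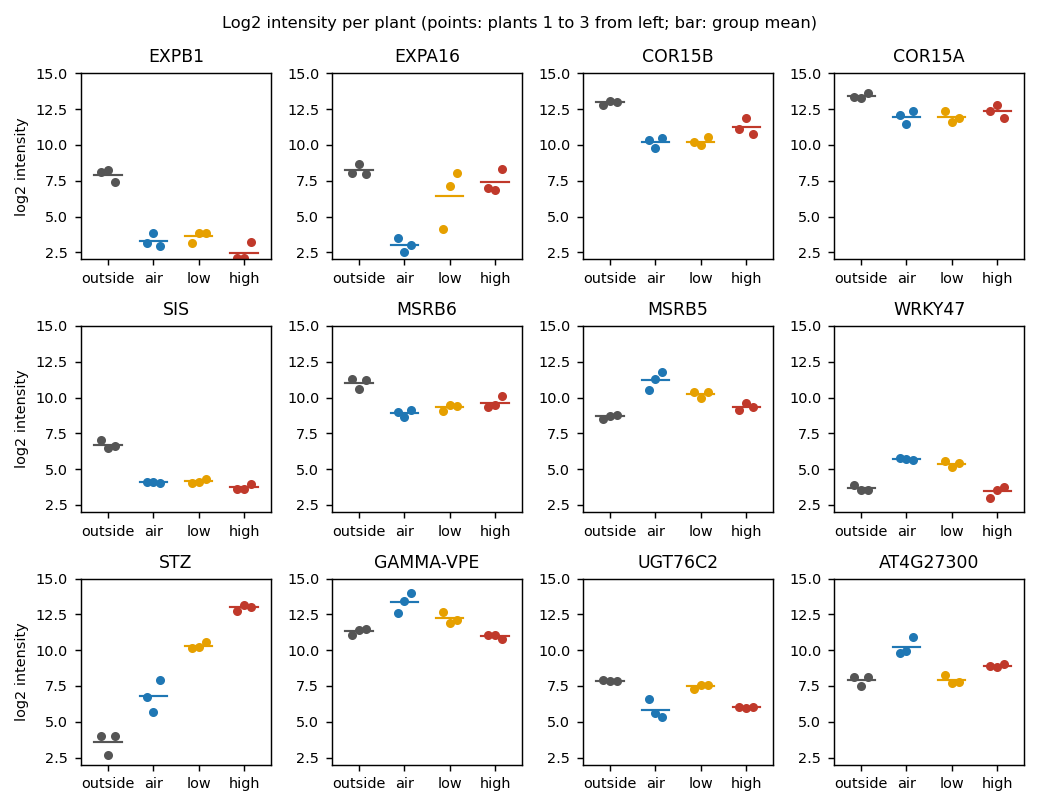
Log2 intensity (y axis) of 12 genes in each plant of the 4 groups (x axis); points are plants 1 to 3 from left to right and bars are group means. EXPB1, COR15B, SIS and MSRB6 lie lower in all chamber groups than outside, whereas EXPA16, UGT76C2 and AT4G27300 in the low plants lie nearer to the outside plants than the air plants do.

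Of 24 listed touch and wind genes, 8 were measured. STZ, a zinc finger repressor that many stresses raise and that is also on the cold list, read 4.01, 2.70 and 4.03 outside and 6.74, 5.69 and 7.91 in air (3.20 ± 0.54, 9.19-fold, adjusted p = 0.0136). WRKY53, a transcription factor of leaf ageing and defence, read 5.24, 4.30 and 4.40 outside and 7.62, 6.79 and 6.19 in air (2.22 ± 0.41, adjusted p = 0.0187). These were the 2 calls among the 8, with 0 lower and a median of 0.719, beside 3.1% of all probe sets called higher. PUB22 (0.81, adjusted p = 0.203) and PUB23 (1.35, adjusted p = 0.203), ubiquitin ligases of the immune response, and the calmodulin-like CML37, CML38 and CML23 were not called. CML37 stayed at 2.11 to 2.14 in all outside and air plants. STZ kept its call without any single array but not with only the 6 outside and air arrays (adjusted p = 0.147), where 0 of the 8 were called, and WRKY53 lost it in 3 of 12 fits, up to 0.0644 without outside plant 3.

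WRKY47, a further factor of the same family, had a narrow spread, at 3.86, 3.55 and 3.57 outside and 5.81, 5.69 and 5.66 in air (2.06 ± 0.20, adjusted p = 0.00195). Of 6 measured WRKY genes, a family picked after its values were seen, these 2 were called higher and 0 lower, beside 3.1% and 2.5% of all probe sets. Among factors of the bZIP family, bZIP44 rose by 2.03 (adjusted p = 0.0205), and AT2G40620, or bZIP18, fell by 1.2 (adjusted p = 0.0223). The bZIP44 call was lost without air plant 2 (0.0712) or air plant 3, and that of bZIP18 in 4 of 12 fits, up to 0.0667 without outside plant 2.

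A pair of neighbouring genes moved in opposite directions. MSRB5 and MSRB6 lie next to each other on chromosome 4 and encode methionine sulfoxide reductases, which repair oxidised methionine in proteins. MSRB5 read 8.51, 8.74 and 8.80 outside and 10.53, 11.32 and 11.78 in air, a rise of 2.52 ± 0.29 (adjusted p = 0.0035). MSRB6 read 11.28, 10.57 and 11.25 outside and 8.97, 8.65 and 9.10 in air, a fall of 2.13 ± 0.26 (adjusted p = 0.00417). The 6 outside and air plants do not overlap for either gene, which the naming rule required and which held for 20.2% of all probe sets. The other measured members, MSRB3 (-0.28, adjusted p = 0.442) and MSRB9 (1.04, adjusted p = 0.321), were not called. Of the 4 measured genes of this family, picked after its values were seen, 1 was called higher and 1 lower. These calls stand beside 3.1% and 2.5% of all probe sets.

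Carbohydrate genes gave few calls. Of 16 measured sugar transporters (36 listed), 2 were called lower and 0 higher, beside 2.5% and 3.1% of all probe sets. With array weights, centring or quantile normalization, 1 was called higher as well. With only the outside and air arrays in the fit, 1 was called higher and 0 lower. SWEET2, a sugar transporter of the vacuole membrane, read 6.08, 5.60 and 5.84 outside and 5.0, 3.13 and 3.55 in air (-1.94, adjusted p = 0.0402), and SWEET4 fell by 0.97 (adjusted p = 0.0416). SWEET11, which exports sucrose from leaf cells toward the phloem, lay at 12.38 to 12.54 outside and 13.48 to 13.54 in air without passing the threshold (1.06, adjusted p = 0.0501). SWEET13, with the same role, read 6.91 in air plant 1 and 10.57 and 9.80 in the others, on both sides of the outside values of 7.98 to 8.29.

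Of 6 measured starch and sucrose genes (27 listed), APL3, a subunit of the enzyme that makes ADP-glucose for starch, rose by 1.98 (adjusted p = 0.0338), reading 8.5, 10.42 and 9.67 in air against 7.33 to 7.86 outside. DPE1, an enzyme that works on maltotriose during starch breakdown, fell by 0.97 (adjusted p = 0.0239). These were the 2 calls of the list, beside 3.1% of all probe sets called higher and 2.5% lower. Outside the list, AT4G24450, annotated as a water dikinase, rose by 1.18 (adjusted p = 0.0428). The calls of SWEET2, SWEET4, APL3, DPE1 and AT4G24450 were each lost in at least 5 of 12 fits with an array left out. The highest adjusted p was 0.117 for SWEET2 (without air plant 3), 0.114 for SWEET4 (without outside plant 1), 0.106 for APL3 (without outside plant 3), 0.077 for DPE1 and 0.135 for AT4G24450 (both without air plant 2).

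In hormone pathways the measured genes were few. Both measured genes of the gibberellin and brassinosteroid list (20 listed) were called higher, as were 3.1% of all probe sets. GID1B, a gibberellin receptor, read 2.79, 3.82 and 4.16 outside and 5.08, 6.26 and 7.19 in air (2.59 ± 0.53, adjusted p = 0.0269), and the receptor GID1A rose by 0.93 (adjusted p = 0.0475). UGT76C2, which glucosylates cytokinins, fell from 7.90, 7.85 and 7.82 to 6.59, 5.62 and 5.34 (-2.01 ± 0.27, adjusted p = 0.00622), the 1 call among 7 measured cytokinin genes (33 listed), beside 2.5% of all probe sets called lower. Of the 7, 3 lay within 0.5 of the lowest value in all 12 plants. The GID1B call was lost in 4 of 12 fits, up to 0.0835 without air plant 2, and that of GID1A in 11, up to 0.131 without outside plant 2. UGT76C2 was called in all 12.

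No call fell on 12 measured auxin genes (55 listed), 3 jasmonate genes, 2 ethylene genes or the single abscisic acid gene, HIS1-3. Over all probe sets, 5.6% were called. Within 0.5 of the lowest value in all 12 plants were 8 of the auxin and 1 of the jasmonate genes. HIS1-3, a linker histone raised by drought, read 7.48, 10.02 and 11.19 in air against 7.64 to 8.90 outside. IAA29, an auxin-response repressor, again parted the air plants, at 8.06 in plant 1 and 2.34 and 3.74 in plants 2 and 3, against 7.99 to 8.25 outside (-3.40, adjusted p = 0.147). The lists of light harvesting and Calvin cycle (6 measured), photorespiration (6), sugar starvation (5) and heat shock (6) also held 0 calls, beside the same 5.6%. Their medians were -0.075, 0.00632, -0.0714 and 0.043. GI, the 1 clock gene measured, read 9.49, 10.04 and 9.79 outside and 9.42, 8.95 and 9.46 in air (-0.50 ± 0.18, adjusted p = 0.166). Of 7 measured flavonoid and anthocyanin genes 0 were called, at a median of 0.981, and 2 lay within 0.5 of the lowest value in all 12 plants. Without air plant 1, 4 of the 7 were called higher (median 1.78), beside 1167 of all 22746 probe sets. With array weights 3 of the 7 were, beside 863 of 22746. Without air plant 1 there was also 1 call lower each among the auxin and the sugar starvation genes, beside 970 of 22746. The single measured genes for shade and light (HYH, -0.47, adjusted p = 0.575), cuticle (WSD1, -1.17, adjusted p = 0.196) and nitrate (NRT2.5, at 2.11 in all plants) were not called either.

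Further named genes belonged to several roles. THI2.2, an antimicrobial thionin, read 9.02, 8.96 and 10.50 outside and 7.46, 5.95 and 5.15 in air (-3.31 ± 0.59, adjusted p = 0.0164). SIS, named for its salt induction and its serines, read 7.01, 6.45 and 6.59 outside and 4.1, 4.09 and 4.05 in air, and had the lowest adjusted p of the named genes (-2.61 ± 0.16, adjusted p = 0.00019). GPDHC1, a glycerol-3-phosphate dehydrogenase of the cytosol, fell by 2.66 (adjusted p = 0.0188). Air plant 1 was the highest air plant for THI2.2 and GPDHC1, whereas the 3 air plants lay within 0.05 of each other for SIS.

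GAMMA-VPE, a protease that processes vacuolar proteins, was higher, at 12.62, 13.45 and 13.97 in air against 11.04, 11.43 and 11.46 outside (2.04 ± 0.33, adjusted p = 0.0121). SUFE2, which activates cysteine desulfurases for iron-sulfur cluster assembly, rose by 2.1 (adjusted p = 0.0145), CYP71B36, a cytochrome P450, by 2.54 (adjusted p = 0.0258), CHX16, a cation/proton exchanger and the 1 call of 6 measured ion transport genes, by 1.26 (adjusted p = 0.0216) and PDC2, a pyruvate decarboxylase of fermentation, by 0.77 (adjusted p = 0.0198). GAMMA-VPE was the 1 call of 4 measured vacuolar processing enzymes, and CYP71B36 the 1 call of 18 measured CYP71B genes. Both families were picked after their values were seen. Beside these calls and that of CHX16, 3.1% of all probe sets were called higher. Within 0.5 of the lowest value in all 12 plants were 2 vacuolar processing enzymes, 7 CYP71B genes and 4 ion transport genes. PDC2 was the 1 call among 4 measured low-oxygen genes, beside the same 3.1%. AT5G10040, AT4G10270 and AT3G10040 of that list stayed between 2.11 and 3.10 in the outside and air plants. Without air plant 2 the calls of THI2.2 (0.0588), GPDHC1 (0.0669) and SUFE2 (0.0503) were lost. Those of GPDHC1 (5 fits), CYP71B36 (4, up to 0.0799 without outside plant 3), CHX16 (4, up to 0.0687 without air plant 3) and PDC2 (3, up to 0.0616 without outside plant 1) were lost with more than 1 array.

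Genes known here by locus alone were among the largest changes. AT5G48490 read 11.61, 11.38 and 10.52 outside and 7.10, 4.02 and 3.07 in air (-6.44 ± 1.32, adjusted p = 0.0282), with air plant 1 the least changed. AT1G20070 fell from 7.87, 8.45 and 9.28 to 3.80, 3.33 and 3.61 (-4.95 ± 0.36, adjusted p = 0.000542). AT3G62820 changed by -4.58 (adjusted p = 0.0223) and AT3G05640 by -3.96 (adjusted p = 0.000542). Higher in air were AT4G19430 (3.92 ± 0.69, adjusted p = 0.0159), AT3G23550 (3.55 ± 0.48, adjusted p = 0.00612), AT1G05575 (3.54 ± 0.27, adjusted p = 0.000643) and AT5G18470 (3.39 ± 0.55, adjusted p = 0.0123). Calls were lost for AT5G48490 in 5 of 12 fits (up to 0.0931 without air plant 2), for AT3G62820 in 4 (up to 0.0653 without outside plant 2) and for AT4G19430 without air plant 2 (0.0576). The other 5 held in all 12.

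Markers of other cells were read for the same leaves. In bulk tissue, fewer cells of a type and less RNA per cell cannot be told apart. FMA, a factor that completes guard cell formation, fell by 1.23 (6.43, 5.73 and 6.59 outside, 5.15, 4.84 and 5.05 in air, adjusted p = 0.0413), whereas AT1G22690 of the same marker list read 9.59, 9.33 and 8.40 outside and 11.49, 10.61 and 9.62 in air (1.47, adjusted p = 0.104). These were the 2 measured of 5 guard cell markers, with 1 called lower beside 2.5% of all probe sets. The FMA call was lost in 8 of 12 fits (up to 0.127 without air plant 2). PYK10, a root glucosidase, was the 1 measured of 8 markers of other tissues. It sat at 2.11 in all outside plants and in air plants 1 and 2, and at 6.17 in air plant 3. The part of these markers in the results was not tested.

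**Figure D3:**
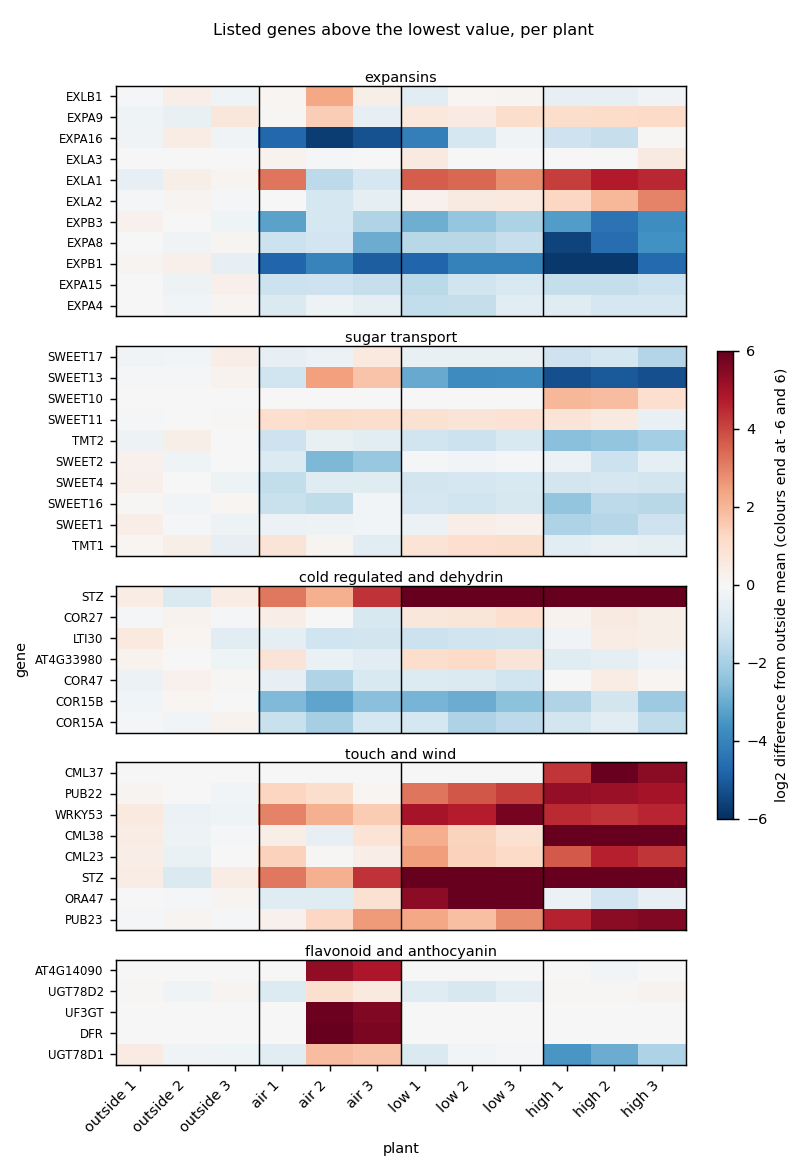
Difference of each plant from the mean of the outside plants (colour, log2, ending at -6 and 6) for members of 5 gene lists above the lowest value in at least 1 plant; rows are genes, columns are plants, and black lines part the groups. EXPA16, EXPB1 and COR15B are lower in all 3 air plants, whereas EXLA1, SWEET13, DFR, UF3GT and AT4G14090 part air plant 1 from air plants 2 and 3.

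The next question was whether the low and high plants, which were in the chamber too, showed the same changes. All comparisons against outside use the same 3 outside plants, so their values stand side by side and do not support each other. Of the 705 probe sets called higher in air, 386 (54.8%) were also called higher in low against outside and 426 (60.4%) in high against outside. Over all probe sets, 7.8% were called in low against outside (4.03% higher) and 37.5% in high against outside (16.4% higher). Of the 569 called lower, 299 (52.5%) were called lower in low and 459 (80.7%) in high, beside backgrounds of 3.77% and 21.1%. In both low and high the call held for 285 (40.4%) of the higher and 264 (46.4%) of the lower probe sets, and in neither for 178 (25.2%) and 75 (13.2%). The shares of all probe sets called in both, or in neither, were not counted. Those called in both cannot exceed the 4.03% higher and 3.77% lower of low against outside. The opposite call was made for 2 higher and 0 lower probe sets in low, and for 70 (9.93%) and 22 (3.87%) in high.

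By size, the median change of the 705 was 0.928 in air, 0.68 in low and 0.834 in high, each against the outside plants. For the 569 it was -0.962, -0.642 and -1.12. The sets were chosen on the air plants, which favours larger values there. In the direct test of low against air, 28 of the 705 (3.97%) were called lower in low, which is back toward the outside level, and 19 higher. Of the 569, 18 (3.16%) were called higher in low and 6 lower. That test called 1.24% of all probe sets (0.488% lower and 0.756% higher), and the air plants that chose the sets also enter it. Against air, the high plants were called lower in 261 (37%) and higher in 220 (31.2%) of the 705, where 34.6% of all probe sets were called (19.9% lower and 14.7% higher). Of the 569, the high plants were called lower than air in 179 (31.5%) and higher in 96 (16.9%).

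**Figure D4:**
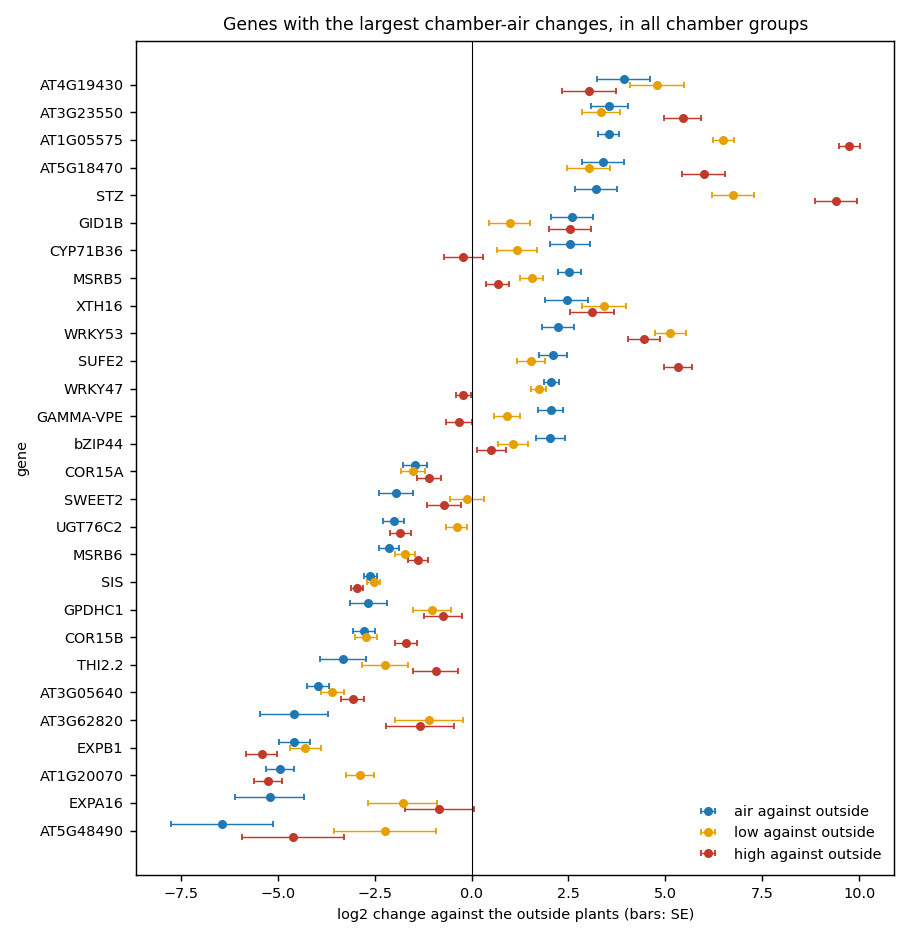
Log2 change against the outside plants (x axis, bars are SE) in the air, low and high plants for the 28 genes with the largest chamber-air changes by the naming rule (y axis). EXPB1, COR15B, SIS and MSRB6 lie below 0 in all comparisons, STZ and AT1G05575 rise from air to low to high, and CYP71B36, WRKY47 and GAMMA-VPE lie near 0 in the high plants.

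Several falls were also called in both the low and the high plants. EXPB1 read 3.14, 3.85 and 3.85 in the low plants and 2.11, 2.11 and 3.23 in the high plants, a fall of 4.29 in low (adjusted p = 0.000672) and an at least 42.8-fold lower level in high (adjusted p = 8.68e-06). Its difference between low and air was 0.30, with a 95% interval of -0.60 to 1.19. SIS changed by -2.53 in low (adjusted p = 0.000113) and -2.96 in high (adjusted p = 1.42e-06), and low differed from air by 0.08 (95% interval -0.28 to 0.44). EXPA15 changed by -1.25 and -1.38, MSRB6 by -1.72 and -1.39, SWEET4 by -1.0 and -1.07, and AT3G05640 by -3.59 and -3.07, in low and high and all called. In high, AT3G05640 lay above air by 0.89 (95% interval 0.23 to 1.56, adjusted p = 0.0427, a call lost in 8 of 12 fits) and MSRB6 by 0.73 (95% interval 0.14 to 1.33, adjusted p = 0.0579). The SWEET4 call in low was lost in 5 of 12 fits (up to 0.0898).

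COR15B was kept in low in full (10.18, 10.00 and 10.52, a change of -2.73, adjusted p = 0.00107) and in part in high (11.14, 11.86 and 10.79, -1.7, adjusted p = 0.00109). High lay above air by 1.07 (95% interval 0.44 to 1.7, adjusted p = 0.0152, lost without air plant 2 at 0.0577). COR15A changed by -1.51 in low (adjusted p = 0.0218) and -1.09 in high (adjusted p = 0.0208), losing the call in 4 and 3 of 12 fits with 1 array left out, up to 0.0815 and 0.0715.

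Among rises, XTH16 and AT4G19430 were kept in both. XTH16 read 6.78, 6.94 and 6.91 in low and 6.05, 6.21 and 7.43 in high, and was called in low (3.42, adjusted p = 0.00849) and high (3.11, adjusted p = 0.00185). AT4G19430 changed by 4.79 and 3.03. AT3G23550 and AT5G18470 stood in low close to air (3.34 and 3.02) and higher in high (5.45 and 5.99, high against air adjusted p = 0.0124 and 0.00518). SUFE2 changed by 1.54 in low and 5.33 in high (high against air 3.24, adjusted p = 0.000127). Its call in low was lost in 7 of 12 fits, up to 0.118, and that of AT5G18470 in 1, at 0.0556 without low plant 3.

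STZ, AT1G05575 and WRKY53 were further up in formaldehyde. STZ read 10.18, 10.22 and 10.57 in low and 12.75, 13.16 and 13.04 in high, and low exceeded air by 3.54 (95% interval 2.32 to 4.76, adjusted p = 0.0249). AT1G05575 exceeded air by 2.95 in low (adjusted p = 0.00228) and by 6.21 in high (adjusted p = 5.82e-07). WRKY53 exceeded air by 2.90 in low (adjusted p = 0.0175) and by 2.22 in high (adjusted p = 0.00233). The low-minus-air calls of STZ and WRKY53 were each lost in 3 of 12 fits, up to 0.101 without low plant 3 and 0.0672 without air plant 2. Over the touch and wind list the median change against outside was 0.719 in air, 3 in low and 5.17 in high, with 2, 5 and 7 of the 8 called higher, beside 3.1%, 4.03% and 16.4% of all probe sets.

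Other changes were called in chamber air and turned back in the low plants. UGT76C2 read 7.28, 7.58 and 7.59 in low, above air by 1.63 (95% interval 1.02 to 2.24, adjusted p = 0.0314), and 6.05, 5.98 and 6.03 in high, where it differed from outside again (-1.84, adjusted p = 0.000577). AT4G27300 read 9.78, 9.93 and 10.92 in air, 8.12, 7.49 and 8.15 outside and 8.24, 7.70 and 7.79 in low. It changed by 2.29 in air (adjusted p = 0.0059), and low lay below air by a difference of -2.30 (adjusted p = 0.0139). AT4G00670 read 4.93, 5.0 and 5.16 in air, 3.53, 3.63 and 3.23 outside and 3.40, 3.48 and 3.55 in low (low minus air -1.55, adjusted p = 0.000611), and it lay below air in high too (-1.33, adjusted p = 3.09e-05). The low-minus-air call of AT4G00670 held without any single array, that of AT4G27300 was lost without low plant 2 (0.0702) or low plant 3, and that of UGT76C2 in 9 of 12 fits, up to 0.118 without low plant 2. With only the air and low arrays, 0 of these 3 were called (adjusted p = 0.0551, 0.186 and 0.236). Over all probe sets, 57 of the 283 calls in low against air held in every fit with 1 array left out, and 3 with only those arrays.

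The rest of the named genes that turned back in low against air were, among the falls, AT1G20070, AT5G19580, AT1G21010, AT1G75960 and AT2G40620. Their low-minus-air differences were 2.08, 2.55, 1.94, 2.18 and 1.25 (adjusted p = 0.036, 0.0304, 0.0302, 0.0302 and 0.0441), and each of these calls was lost in 6 to 10 of the 12 fits with 1 array left out, at an adjusted p of up to 0.138, 0.107, 0.114, 0.112 and 0.156. AT1G20070 nevertheless stayed below outside in low by a change of -2.87 (adjusted p = 0.00306) and in high by -5.25. Among the rises they were AT5G11930, AT2G31990, AT5G39850 and AT4G24450, at -3.15, -1.40, -1.19 and -1.57 (adjusted p = 0.0441, 0.0412, 0.0469 and 0.0358), lost in 11, 10, 11 and 10 fits, up to 0.155, 0.151, 0.166 and 0.135. Leaving out air plant 2, air plant 3, low plant 2 or low plant 3 each ended all of these calls. AT5G11930 read 4.34, 6.59 and 6.63 in air, and its call in air against outside (2.58, adjusted p = 0.0389) was lost in 11 of 12 fits, up to 0.122 without air plant 2.

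Calls in air were likewise lost with 1 array left out for AT1G21010 (0.052 without air plant 2), AT1G75960 (5 fits, up to 0.0904 without outside plant 3), AT2G31990 (without outside plant 2 or 3, up to 0.0608) and AT5G39850 (4 fits, up to 0.0675 without air plant 2). In high against outside, AT1G75960 (-3.36, adjusted p = 6.99e-05) and AT5G19580 (-1.90, adjusted p = 0.00539) were called lower, as in air. AT2G31990 (2.85, adjusted p = 2.79e-05) and AT4G27300 (0.99, adjusted p = 0.0306) were called higher, as in air. AT1G21010 moved the other way in the high plants, to 8.42, 8.99 and 9.29 from 6.60 to 7.26 outside (1.98, adjusted p = 0.00086). AT5G39850 was called lower there (-0.70, adjusted p = 0.0372), also against its direction in air. AT2G40620 (-0.57), AT5G11930 (-1.02), AT4G24450 (-0.68) and AT4G00670 (0.23) were not called in high against outside.

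For EXPA16 the low plants were uneven, at 4.15, 7.16 and 8.04, and the high plants read 7.00, 6.87 and 8.32. Neither differed from outside by the test (-1.78, adjusted p = 0.314, and -0.83, adjusted p = 0.588), and high lay above air by 4.38 (95% interval 2.35 to 6.40, adjusted p = 0.00427). Low exceeded air by 3.43 without passing (95% interval 1.41 to 5.45, adjusted p = 0.0994). AT3G62820 (high minus air 3.23, adjusted p = 0.0187), THI2.2 (2.37, adjusted p = 0.0117) and GPDHC1 (1.91, adjusted p = 0.0138) likewise lay higher in high than in air. The call was lost for AT3G62820 without high plant 3 (0.0623) and for GPDHC1 without air plant 2 (0.0529). AT5G48490 read 7.68, 10.12 and 8.99 in low (-2.24 against outside, adjusted p = 0.425) and 5.02, 5.45 and 9.20 in high (-4.61, adjusted p = 0.022, lost in 4 of 12 fits, up to 0.0812).

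Among the rises, WRKY47 was kept in low (5.54, 5.14 and 5.46, a change of 1.73, adjusted p = 0.0021) and read 3.00, 3.56 and 3.78 in high, near the outside values and below air by a difference of -2.28 (adjusted p = 3.09e-05). MSRB5 changed by 1.55 in low (adjusted p = 0.0149, lost in 2 of 12 fits, up to 0.0599) and 0.67 in high (adjusted p = 0.11). GAMMA-VPE (0.92 in low, -0.32 in high), CYP71B36 (1.17 and -0.21) and bZIP44 (1.07 and 0.51) were called in neither. All of these lay below air in the high plants, MSRB5 by a difference of -1.85, GAMMA-VPE by -2.36, CYP71B36 by -2.75 and bZIP44 by -1.52, each called. That of bZIP44 was lost without air plant 2 (0.0502). GID1B read 4.94, 4.2 and 4.56 in low (0.98, adjusted p = 0.36) and 6.07, 6.23 and 6.11 in high (2.54, adjusted p = 0.00413), whereas GID1A was called lower in high (-1.64, adjusted p = 0.000349).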

How the data were processed

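Rosette leaf RNA of 12 plants (4 groups of 3) was measured on 1 array each, from about 100 mg of leaf and 10 µg of RNA. The authors deposited log2 values made with GCRMA, per the submitters' processing notes, and its version is not given in the sources used here. The deposited values were used without further scaling or filter. GCRMA sets dim probe sets to a common low value, so folds of dim genes are understated. A group mean within 0.5 of the lowest value gives a fold as a lower bound.

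Of 22810 probe sets, 64 array controls were left out. The supplied annotation paired 13513 of the rest with 1 gene, 503 with several and 8730 with none. RefSeq (TAIR10.1) gave names and gene order only. Arrays carry no depth, and their number limits the precision.

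Group means were fitted in R 4.3.3 with limma 3.58.1 on all 12 arrays with 4 group means and 8 residual degrees of freedom. The variances were moderated along a trend with mean intensity, and the two-sided p-values were adjusted by Benjamini-Hochberg over 22746 probe sets. An exact permutation test of 3 against 3 plants cannot go below p = 0.1 and was not used. The fit was tested on simulated data. Tables were made in Python 3.11.15 with pandas 2.3.3, figures with matplotlib 3.10.9.

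Named genes were, per direction, the 14 with the largest change among called probe sets of 1 gene whose log2 change reached 1 and whose groups did not overlap, at most 4 of them without a symbol. Added were up to 5 called members per list, all members of lists with at most 4 measured, and up to 6 genes per direction kept in low and high or turned back in low against air. EXLA1, SWEET11, SWEET13, IAA29, DFR and other uncalled list members are named after their values were seen. The comparison, members and 27 lists with a measured gene were chosen with earlier results of these data known. Alternatives were other normalizations, a filter on dim probe sets, variance models, thresholds, array weights, only the arrays compared, a replicate block and each array left out in turn.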

Additional observations from a re-analysis of the deposited data

How the results depend on the processing

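The number of probe sets called in air against outside (1274) moved by over 1.5 times with dim probe sets left out (1927), with only the 2 groups in the fit (58, with 3478 at an unadjusted p under 0.05), with the replicate block (845), with a 2-fold minimum (583) and at an adjusted p under 0.01 (282). With 1 array left out it ran from 603 to 2137. Low against outside (1775) gave 2897 with array weights, 858 with the 2-fold minimum, 583 at 0.01, and 820 to 2273 with 1 array left out. High against outside (8526) gave 4835 with the 2-fold minimum and 7258 to 8676 with 1 array left out, and high against air (7867) gave 4298 and 6633 to 7850. Low against air (283) gave 1719 with array weights, 678 with arrays centred on their medians, 1179 without dim probe sets, 7 with only the 2 groups, 81 with the replicate block, 180 with the 2-fold minimum, 51 at 0.01, and 76 to 2250 with 1 array left out, the highest without air plant 1. The cause of these moves was not tested. Centring shifted the median of a comparison by at most 0.0721 and moved the share of higher calls from 55.3% to 47.7% in air against outside and from 60.8% to 72% in low against air. Same-numbered plants deviated together with correlations of only 0.0431, 0.115 and 0.231 between outside and air, and of -0.273 to 0.231 over all groups, so the numbers were not taken as pairs. Of the 47 named genes called in air against outside, 18 were called in every fit with 1 array left out, 10 with only the 2 groups and 31 with the replicate block, and none of the 47 changed direction in any fit. Array weights, centring and leaving out dim probe sets removed 0 of the 47 calls, fits without the mean trend and with quantile normalization 1 each, and robust variances 2. Signals near the lowest value limit what can be seen in dim genes.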

Other observations

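The flavonoid and anthocyanin list held 3 genes that stood high in air plants 2 and 3 and low in the other 10 plants. DFR, dihydroflavonol reductase, read 8.5 and 7.76 in these and 2.11 in the other 10 plants. UF3GT read 7.98 and 7.65 there and 2.11 elsewhere, and AT4G14090 of the same list read 8.06 and 7.60 there and at most 2.76 elsewhere. They were not called in air against outside (4.01, 3.81 and 3.38 on the log2 scale, adjusted p = 0.138, 0.136 and 0.137). UGT78D1, a flavonol rhamnosyltransferase, read 11.50 and 11.33 in air plants 2 and 3, 9.01 in air plant 1 and 9.36 to 10.13 outside. These genes were singled out after their values were seen. Air plants 2 and 3 also stood apart from air plant 1 for SWEET13, IAA29 and EXLA1. The low plants, in the same kind of chamber, read like air plant 1 for DFR, UF3GT and AT4G14090.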
